A study of Mus musculus with 28 samples.

Results

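The genomic neighbours of Rbm5 on mouse chromosome 9 were the rows of the array table numbered next to the row of that gene. Each row of the table is a transcript cluster, a group of probes read as 1 value, and carries a chromosome and a running number. The neighbours were all rows of chromosome 9 numbered within 150 of the brightest row annotated Rbm5, with the rows of Rbm5 and of its paralog Rbm6 left out. They came to 298 of the 65956 rows tested, 149 below and 149 above Rbm5. Of these, 141 were paired with 1 gene, 5 with several genes and 152 with no gene. No measured value entered this rule, except that the brightest row fixed the centre, and only 1 row was annotated Rbm5. The neighbours were chosen as a set with earlier results of these data known.

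Cerebral cortex was taken from 28 mice aged 12 to 15 weeks, of both sexes, 7 in each of 4 groups. The groups were wild type (WT) after sham, WT after controlled cortical impact (CCI), Rbm5 knockout (KO) after sham and KO after CCI. CCI is a brain injury model in which a piston strikes the exposed cortex, here after a craniotomy over the left parietal cortex. Sham mice were anaesthetised without a craniotomy, so the comparison of CCI with sham holds both the impact and the opening of the skull. Tissue was collected 48 h later. All mice of a group shared genotype and procedure. The knockout allele, the strain and whether WT and KO mice were littermates are not given in the sources used here.

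Rbm5 codes for an RNA-binding protein that takes part in pre-mRNA splicing. Around it lie Rbm6, the semaphorins Sema3b and Sema3f, the G protein subunits Gnai2 and Gnat1 and a group of genes whose human counterparts on 3p21.3 are often lost together in lung cancer. An allele made in embryonic stem cells can stay surrounded by DNA of the cell line's strain after backcrossing, and genes near an edited site can also change when shared regulatory DNA is altered. The genotype comparison of the neighbours addresses whether any shift accompanied the knockout along this stretch.

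The promoters of 4 genes that differed between genotypes are printed first, each from 250 bases before to 50 bases after the RefSeq start on GRCm38.p6. P4htm and Dalrd3 lie close together and had less signal in KO mice, whereas Clstn2 and Cep63 lie farther away and had more. Direction did not go with distance throughout. Counted in genes, Ubp1, Susd5 and Epm2aip1 lie farther from Rbm5 than Cep63 and also had less. Trank1, Stag1 and Clasp2, at such distances too, had more. Capitals mark matches, on either strand, to the TATA box (letters TATAAA), the CCAAT box, the GC box (letters GGGCGG) and the E-box (letters CACGTG).
P4htm: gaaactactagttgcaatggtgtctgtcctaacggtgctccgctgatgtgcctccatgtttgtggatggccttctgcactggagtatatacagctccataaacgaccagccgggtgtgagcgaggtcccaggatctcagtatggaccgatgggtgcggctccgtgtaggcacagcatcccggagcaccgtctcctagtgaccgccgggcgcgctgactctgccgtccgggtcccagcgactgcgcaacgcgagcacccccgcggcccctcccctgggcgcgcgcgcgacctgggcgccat
Dalrd3: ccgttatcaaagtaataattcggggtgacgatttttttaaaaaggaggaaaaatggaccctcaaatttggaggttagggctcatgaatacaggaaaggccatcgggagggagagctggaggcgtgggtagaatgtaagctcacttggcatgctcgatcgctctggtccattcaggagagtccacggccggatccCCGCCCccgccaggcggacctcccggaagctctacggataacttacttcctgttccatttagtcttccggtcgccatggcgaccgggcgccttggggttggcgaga
Clstn2: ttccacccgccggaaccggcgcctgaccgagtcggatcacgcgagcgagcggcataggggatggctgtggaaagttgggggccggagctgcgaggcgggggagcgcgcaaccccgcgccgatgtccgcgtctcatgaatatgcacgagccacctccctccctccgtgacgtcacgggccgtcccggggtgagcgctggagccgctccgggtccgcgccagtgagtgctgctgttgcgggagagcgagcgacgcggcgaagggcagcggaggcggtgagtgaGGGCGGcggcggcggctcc
Cep63: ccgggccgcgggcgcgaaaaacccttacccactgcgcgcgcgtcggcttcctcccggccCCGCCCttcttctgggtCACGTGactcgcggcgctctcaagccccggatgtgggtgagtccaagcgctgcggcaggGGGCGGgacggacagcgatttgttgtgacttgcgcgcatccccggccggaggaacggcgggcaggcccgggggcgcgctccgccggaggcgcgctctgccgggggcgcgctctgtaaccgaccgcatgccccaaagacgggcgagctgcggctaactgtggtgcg

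The P4htm window (chr9:108597563-108597862, minus strand) holds none of the 4 motifs and 28 CpG dinucleotides. The Dalrd3 window (chr9:108569642-108569941, plus strand) holds 1 GC box and 20 CpG. The Clstn2 window (chr9:98033118-98033417, minus strand) holds 1 GC box and 43 CpG. The Cep63 window (chr9:102626075-102626374, minus strand) holds 2 GC boxes, 1 E-box and 44 CpG. Among all 32851 promoters of the RefSeq table, the motifs were found in 13.6% (TATA box), 37.4% (CCAAT box), 35.7% (GC box) and 7.15% (E-box), and the median was 7 CpG. All 4 windows hold more CpG than the median promoter, and the upper quartile of all promoters was 20 CpG. The 4 genes were picked after their values were seen, so their CpG counts cannot be set against the direction of their differences. A further member, Mir128-2, is a microRNA gene that lies inside Arpp21. Its main mature product is shown with the seed, bases 2 to 8, in capitals, and the same product comes from Mir128-1 on another chromosome.
miR-128-3p: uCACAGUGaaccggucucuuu

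The row numbers followed the order of genes along the chromosome. All 139 pairs of adjacent named neighbours stood in the same order in the RefSeq annotation, and the 106 neighbours with a unique RefSeq promoter strand all lay on the minus strand, the strand of Rbm5. The named genes that lie between the outermost named neighbours in RefSeq order and are no members came to 159 and are called interspersed genes below. Of these, 121 had a RefSeq promoter on the plus strand and 2 on the minus strand, and no unique strand was found for the others. The files name no genome build for the rows, so distance is given as the number of rows from Rbm5, with a minus sign for rows numbered below it.

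Signals are deposited log2 values. The rows of Gm22821, Gm25484 and Gm24641, annotated in RefSeq as small nuclear RNA genes, held the same values on every array and are counted as 1 profile where this matters, which leaves 296 distinct profiles. Of the 298 neighbours, 162 had a mean signal below 5.83, the median of the array medians, and are not shown to be above background. All differences were tested with limma on the whole table, and a row is called at an adjusted p below 0.05. Nothing in the labels says that mice of a group came from different litters or days, and p-values measure the spread among these mice. The titles number the mice from 1 to 24 and from 25 to 42, with mice of all 4 groups in each run of numbers, and the labels do not call the runs batches. Lists of striatal or choroid plexus markers stood more than 1 log2 unit above their median in 7 arrays (numbers 13, 14, 16 and 35 of WT CCI, 22 and 40 of KO CCI and 25 of WT sham), and counts without these arrays are given where they differ. Cortical neuron markers were bright in every group, with a mean over 7 measured genes between 10.67 and 11.72 on single arrays.

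Rbm5 itself had less signal in KO mice. It lay between 10.70 and 10.82 after sham in WT, between 10.59 and 10.79 after CCI in WT, between 9.66 and 9.84 after sham in KO and between 9.71 and 9.80 after CCI in KO. No KO array reached a WT array, and the difference over both procedures was -0.97 on the log2 scale (SE 0.027, adjusted p 2.4e-19). The row therefore still gave signal well above the array median in KO mice, and the sources used here do not say which exons its probes read relative to the deleted part. Rbm6, the next row, differed by 0.045 (SE 0.025, adjusted p 0.487).

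Most neighbours were not called between genotypes. Over both procedures 15 of 298 neighbours were called (5.03%), against 3.16% of all rows, 3.41% of the 3022 other rows of chromosome 9 and, among rows brighter than the array median, 8.82% of neighbours against 5.85% of all. Counted as distinct profiles the calls came to 13 (4.39%). At an unadjusted p below 0.05 there were 39 neighbours (13.1%), against 12.8% of all rows. Of the 15 rows, 10 were higher in KO (1.36% of all rows were) and 5 were lower (1.8% of all rows were), of which 3 are the small nuclear RNA rows with shared values. The median difference of the neighbours was 0.0022, beside -0.001 for all rows. Without the 7 arrays with striatal or choroid plexus signal, 9 neighbours were called.

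No call lay within 10 row numbers of Rbm5. There 0 of 19 neighbours were called by limma (0%, against 3.16% of all rows). At an unadjusted p below 0.05 there were 3 (15.8%, against 12.8% of all rows), and the differences of the 19 ran from -0.15 to 0.14. With so few rows, a count of 0 does not set this band apart from all rows. From 11 to 50 row numbers away 4 of 80 were called (5%), all lower. These were P4htm and the 3 small nuclear RNA rows, which hold 1 shared profile. From 51 to 100 away 6 of 99 were called (6.06%), 5 higher and 1 lower. From 101 to 150 away 5 of 100 were called (5%), all higher. Over all rows 3.16% were called, 1.36% higher and 1.8% lower. Whether the direction of the calls changed with distance was not tested.

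**Figure D1:**
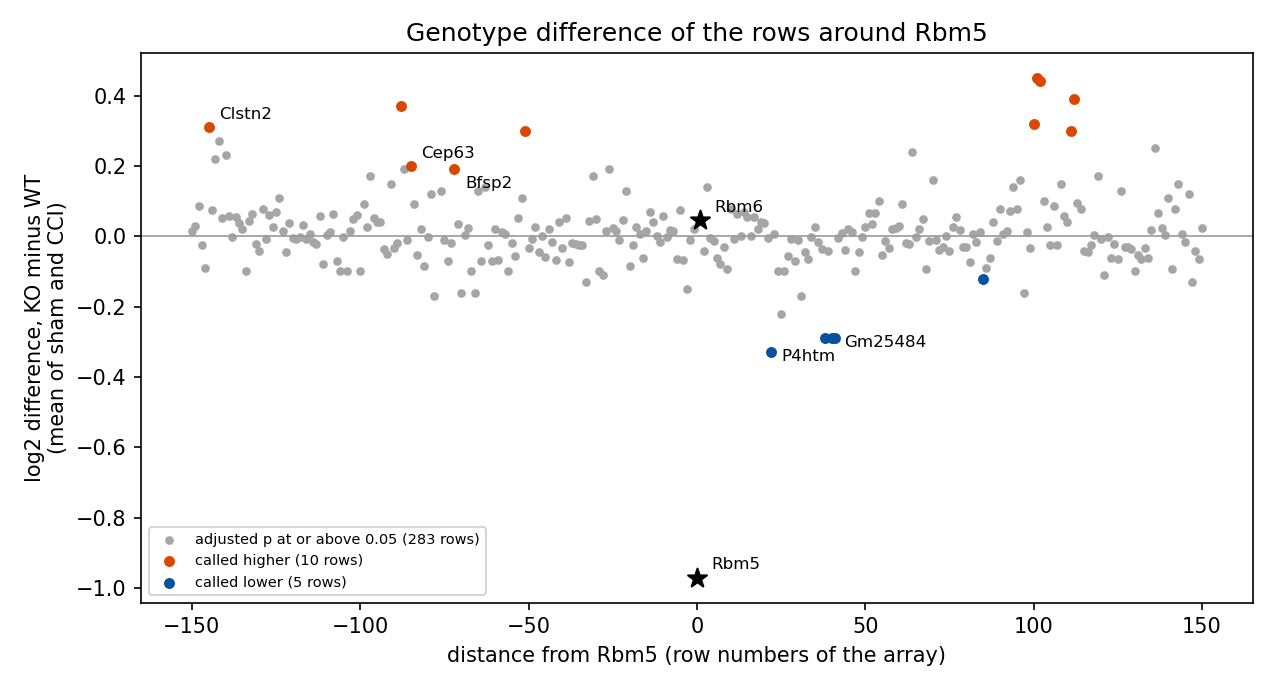
Difference in log2 signal between KO and WT mice, averaged over sham and CCI, for each of the 298 rows against its distance from Rbm5 in row numbers. Rbm5 and Rbm6 are stars. The 19 rows within 10 numbers of Rbm5 lie between -0.15 and 0.14, the called rows with lower signal lie above Rbm5 in number, and Rbm5 at -0.97 stands apart from all of them.

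The 12 named genes nearest to Rbm5 on this strand showed no called genotype difference. Their differences over both procedures lay between -0.15 and 0.076, their 95% confidence bounds between -0.38 and 0.19, and the lowest adjusted p was 0.254. After sham alone the bounds lay between -0.31 and 0.37, and after CCI alone between -0.63 and 0.18.

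Below Rbm5 come Sema3f and Sema3b, which code for secreted guidance cues. Sema3f had mean signals of 6.35 ± 0.085 in WT sham, 6.43 ± 0.048 in KO sham, 6.39 ± 0.036 in WT CCI and 6.35 ± 0.060 in KO CCI (SD, n = 7), a genotype difference of 0.021 (95% interval -0.036 to 0.079). Sema3b differed by -0.065 (95% interval -0.12 to -0.0046, adjusted p 0.337) and was below the array median. Gnat1, the transducin subunit of rods, was dim at 5.15 to 5.19 in the 4 group means. Slc38a3, a glutamine transporter, differed by -0.15 with a wide interval (-0.38 to 0.071), and Gnai2, an inhibitory G protein subunit, by 0.076 (-0.042 to 0.19). Lsmem2 differed by 0.015 (-0.063 to 0.094) and was below the array median.

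Above Rbm5 come Inka1, which codes for an inhibitor of PAK kinases, and the long noncoding RNA gene 4930535L15Rik, both below the array median, at -0.0041 and -0.061. Rnf123, a ubiquitin ligase gene, had the lowest adjusted p of the 12. Its WT sham arrays lay between 8.03 and 8.15 (median 8.05), WT CCI between 8.0 and 8.17 (8.05), KO sham between 7.89 and 8.12 (8.04) and KO CCI between 7.79 and 8.11 (7.98). The groups overlapped, and the difference was -0.080 (SE 0.032, adjusted p 0.254). Apeh, which codes for a peptide hydrolase, differed by -0.029 (95% interval -0.10 to 0.039). Bsn, which codes for the presynaptic scaffold Bassoon, differed by -0.094 (-0.23 to 0.042), and Dag1, which codes for dystroglycan, by 0.063 (-0.0011 to 0.13).

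The genes of the human 3p21.3 tumour suppressor region were followed as a list of 18, of which 14 were measured. None was called between genotypes over both procedures, after sham or after CCI by limma, with 1, 3 and 0 of 14 at an unadjusted p below 0.05. Over all rows 3.16%, 1.28% and 0.653% were called, and 12.8%, 11.1% and 9.8% had such an unadjusted p. With 14 genes, a count of 0 does not set the list apart from all rows. The median difference of the list over both procedures was 0.0085. Nprl2, which codes for a subunit of the GATOR1 complex that restrains mTORC1, was 0.10 higher (SE 0.063, adjusted p 0.554), and Rassf1, a Ras association domain tumour suppressor gene, 0.050 higher (SE 0.034, adjusted p 0.603). The interspersed genes nearest to Rbm5 gave values as small. Mon1a, Gm23856, Mst1r and Actl11 on the upper side ran from -0.053 to -0.0064, and Ifrd2, Hyal2, Rassf1 and Zmynd10 on the lower side from -0.042 to 0.050, with no call among the 8.

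P4htm was the neighbour with the smallest p. It codes for a transmembrane prolyl 4-hydroxylase of the endoplasmic reticulum that can act on hypoxia-inducible factor, and it lies 22 row numbers and 47 RefSeq genes above Rbm5. Signals ran from 7.80 to 8.02 in WT sham (median 7.96), from 7.76 to 8.09 in WT CCI (7.95), from 7.60 to 7.78 in KO sham (7.65) and from 7.44 to 7.68 in KO CCI (7.62). Within each procedure every KO array lay below every WT array, and over both procedures 13 of 14 KO arrays lay below all WT arrays. The difference was -0.33 (SE 0.037, 1.26-fold lower, adjusted p 1.37e-06). It was -0.29 after sham (SE 0.053, adjusted p 0.00309) and -0.38 after CCI (SE 0.053, adjusted p 0.000135). In mice 1 to 24 alone it was -0.33 (adjusted p 0.00698) and in mice 25 to 42 alone -0.34 (adjusted p 0.0768), so the size was alike and the call was lost in the smaller run. The single-procedure calls were also lost within the runs, with adjusted p of 0.171 and 0.543 after sham and 0.0913 and 0.277 after CCI. The rows on either side of P4htm did not show it. Wdr6, the row below, differed by -0.0058 (95% interval -0.25 to 0.24), with 1 WT sham array at 9.20 against a group median of 8.01. Arih2, the row above, which codes for a ubiquitin ligase, differed by 0.0065 (-0.043 to 0.056).

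Dalrd3, an interspersed gene 4 RefSeq genes nearer to Rbm5 than P4htm, was also lower. It codes for a protein with an anticodon-binding domain that takes part in tRNA methylation. Signals ran from 9.86 to 10.27 in WT sham (median 10.11), from 9.65 to 10.45 in WT CCI (10.28), from 9.51 to 10.10 in KO sham (9.85) and from 9.62 to 9.99 in KO CCI (9.86). The groups overlapped within each procedure, in the CCI groups through 1 WT array at 9.65. The difference was -0.35 (SE 0.070, 1.28-fold lower, adjusted p 0.00303), with -0.29 after sham (adjusted p 0.183) and -0.42 after CCI (adjusted p 0.0430). It was -0.33 in mice 1 to 24 (adjusted p 0.0451) and -0.39 in mice 25 to 42 (adjusted p 0.372).

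The small nuclear RNA rows Gm22821, Gm25484 and Gm24641, 38 to 41 row numbers above Rbm5, held 1 shared profile and cannot be told apart from each other. They were among the brightest neighbours. Signals ran from 15.13 to 15.43 in WT sham (median 15.31), from 15.27 to 15.77 in WT CCI (15.59), from 14.60 to 15.30 in KO sham (14.76) and from 15.13 to 15.66 in KO CCI (15.38). The groups overlapped, with 7 of 14 KO arrays below all WT arrays. The difference over both procedures was -0.29 (SE 0.069, 1.22-fold lower, adjusted p 0.0139). It was -0.31 in mice 1 to 24 (adjusted p 0.00807) and -0.24 in mice 25 to 42 (adjusted p 0.579), and without the 7 arrays with striatal or choroid plexus signal -0.30 (adjusted p 0.110). Another small nuclear RNA row, Gm24259 at 25 row numbers, had a difference of -0.22 that was not called (SE 0.072, adjusted p 0.115).

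Clstn2, at the lower edge of the stretch, had the largest rise among named neighbours. It codes for calsyntenin 2, a cadherin-type protein of synapses. Signals ran from 11.73 to 11.98 in WT sham (median 11.83), from 11.67 to 12.19 in WT CCI (11.97), from 12.01 to 12.34 in KO sham (12.23) and from 11.77 to 12.41 in KO CCI (12.21). The sham groups did not overlap, and the CCI groups did. The difference over both procedures was 0.31 (SE 0.063, 1.24-fold, adjusted p 0.00375), with 0.39 in mice 1 to 24 (adjusted p 0.0129) and 0.22 in mice 25 to 42 (adjusted p 0.655).

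Cep63, which codes for a centrosomal protein needed for centriole duplication, was also higher. Signals ran from 8.03 to 8.28 in WT sham (median 8.12), from 7.89 to 8.16 in WT CCI (7.94), from 8.22 to 8.48 in KO sham (8.31) and from 8.05 to 8.49 in KO CCI (8.12). The groups overlapped within each procedure, and the top of the KO CCI group was 1 array, KO CCI 40, one of those with striatal and choroid plexus signal. The difference was 0.20 (SE 0.044, 1.15-fold, adjusted p 0.00875), with 0.21 in mice 1 to 24 (adjusted p 0.0620) and 0.17 in mice 25 to 42 (adjusted p 0.637).

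Bfsp2, which codes for a beaded filament protein of the lens, was below the array median, and its call was close to the threshold. Signals ran from 5.24 to 5.50 in WT sham (median 5.36), from 5.28 to 5.54 in WT CCI (5.50), from 5.51 to 5.81 in KO sham (5.64) and from 5.27 to 5.86 in KO CCI (5.63). The sham groups did not overlap. The difference was 0.19 (SE 0.054, adjusted p 0.0484), and the call was lost on leaving out any of 22 arrays (adjusted p up to 0.0961). It was kept without WT sham 4, WT CCI 35, KO sham 9 or 10, or KO CCI 23 or 41.

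**Figure D2:**
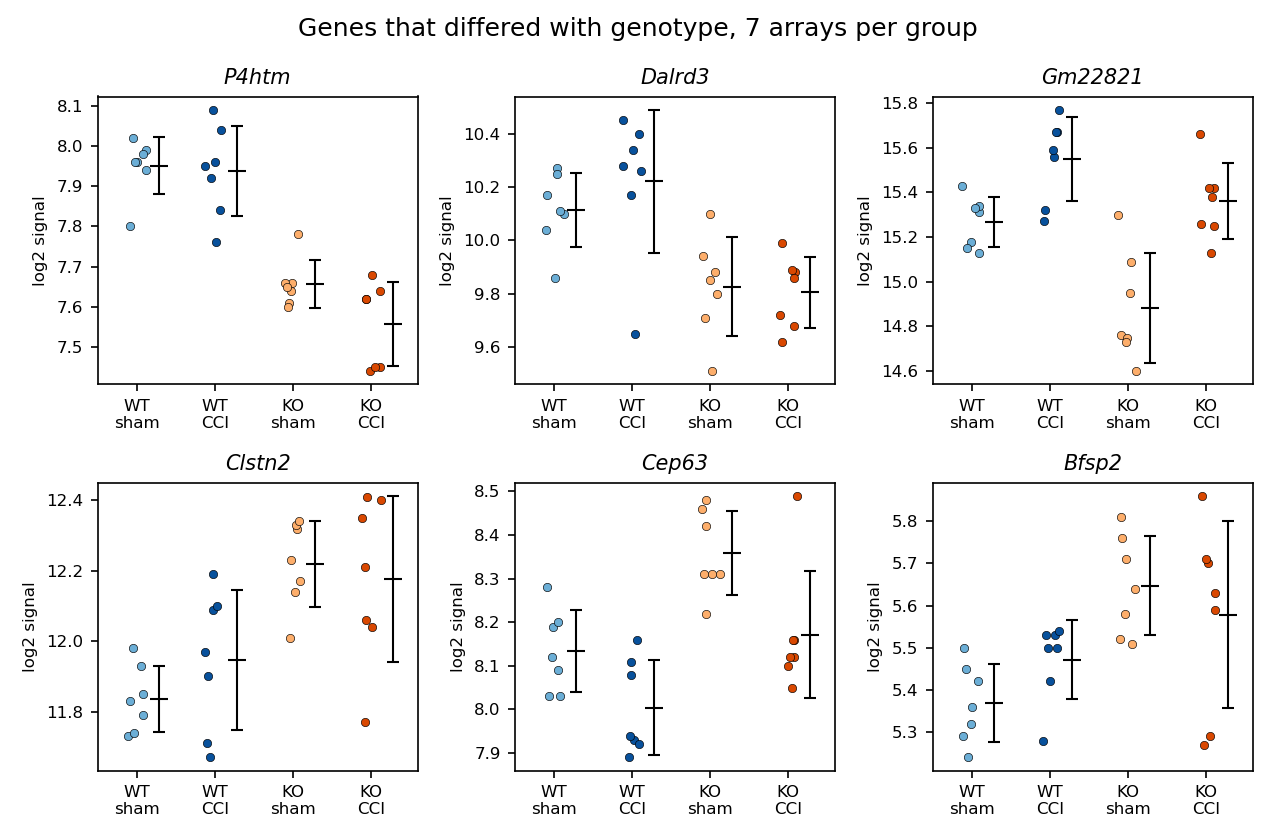
Log2 signal of 6 genes on each array, by group, with the mean and SD beside the points (n = 7 per group). P4htm shows no overlap of KO with WT within either procedure, from 7.44 to 7.78 against 7.76 to 8.09 over all arrays. Dalrd3 and Gm22821 (the shared small nuclear RNA profile) are lower with overlap, and Clstn2, Cep63 and Bfsp2 are higher.

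Neighbours without a single gene held 8 of the 15 calls, 7 higher and 1 lower. The largest differences were those of the rows 101 and 102 numbers above Rbm5. The row at 101 ran from 15.55 to 16.03 in WT sham (median 15.70), from 15.20 to 15.71 in WT CCI (15.47), from 16.12 to 16.54 in KO sham (16.34) and from 15.54 to 16.08 in KO CCI (15.84). Every KO sham array lay above every WT sham array. The difference was 0.45 (SE 0.069, 1.36-fold, adjusted p 0.000161), with 0.56 in mice 25 to 42 alone (adjusted p 0.0654). The row at 102 was 0.44 higher (SE 0.085, adjusted p 0.00274), with 0.30 in mice 25 to 42 alone (adjusted p 0.512). The row at 85, the only unnamed row with a lower call, differed by -0.12 (SE 0.027, adjusted p 0.0128), and by -0.092 without the 7 arrays (adjusted p 0.192).

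Of the 159 interspersed genes, 8 were called over both procedures (5.03%, against 3.16% of all rows and 4.34% of all rows with 1 gene), 3 higher and 5 lower. Ubp1, which codes for a transcription factor, was -0.26 (SE 0.039, adjusted p 0.000133), with -0.27 in mice 1 to 24 (adjusted p 0.00448) and -0.23 in mice 25 to 42 (adjusted p 0.331). Susd5 was -0.19 (SE 0.046, adjusted p 0.0138), Celsr3, an atypical cadherin gene of axon guidance, -0.17 (SE 0.040, adjusted p 0.0119), and Epm2aip1 -0.12 (SE 0.034, adjusted p 0.0483). The mean signal of Susd5 was below the array median. Trank1 was 0.15 higher (SE 0.035, adjusted p 0.0135), Stag1, a cohesin subunit gene, 0.11 (SE 0.032, adjusted p 0.0464) and Clasp2, a microtubule-binding protein gene, 0.10 (SE 0.027, adjusted p 0.0269). The calls of Epm2aip1 and Stag1 were lost on leaving out any of 21 and 20 arrays (adjusted p up to 0.0879 and 0.0862). Epm2aip1 was kept without WT sham 3 or 27, WT CCI 35, KO sham 11 or 33, or KO CCI 22 or 24, and Stag1 without WT sham 3 or 4, WT CCI 13 or 35, KO sham 10 or 31, or KO CCI 21 or 41. The call of Clasp2 was lost without WT sham 1, KO sham 11 or KO CCI 24 (adjusted p up to 0.0547). Within both runs of mice the calls of Trank1, Stag1, Clasp2, Susd5, Celsr3 and Epm2aip1 were lost (adjusted p from 0.133 to 0.689). Without the 7 arrays 2 of the 159 were called.

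Some cortical neuron markers also differed between genotypes. Of 7 measured, Neurod6 and Fezf2 were called higher in KO over both procedures, at 0.35 (adjusted p 0.0194) and 0.33 (adjusted p 0.0254). The others were not called, with 0.085 for Tbr1, 0.039 for Rorb, -0.0072 for Cux2, -0.057 for Slc17a7 and -0.17 for Lamp5. The median difference of the list was 0.039. The mean of the list lay between 11.37 and 11.62 in WT sham and between 11.43 and 11.72 in KO sham. Microglial, astrocyte, oligodendrocyte, striatal and choroid plexus lists held no call over both procedures. In single procedures, the astrocyte marker Gfap was called higher in KO after sham (1.36, SE 0.31, adjusted p 0.0263) and the myelin gene Mbp lower in KO after CCI (-0.42, SE 0.10, adjusted p 0.0490). The part of these differences in the genotype results was not tested. In bulk cortex, fewer cells of a type and less RNA per cell cannot be told apart.

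After sham alone 9 neighbours were called between genotypes (3.02%, against 1.28% of all rows), 5 higher (0.508% of all rows were) and 4 lower (0.776%), or 7 distinct profiles (2.36%). The named ones were P4htm (-0.29), the shared small nuclear RNA profile (-0.39, SE 0.097, adjusted p 0.0408) and Clstn2 (0.39, SE 0.090, adjusted p 0.0234). The call of Clstn2 was lost without WT sham 2 (adjusted p 0.0568) or KO sham 11 (0.0605). That of the small nuclear RNA profile was lost without WT sham 1, 2, 4, 26 or 27 or KO sham 9, 10, 11, 12 or 31 (adjusted p up to 0.127), and when the sham arrays alone were fitted (0.0708). Within both runs of mice the sham call of Clstn2 was lost (adjusted p 0.0954 and 0.68), and in mice 25 to 42 that of the small nuclear RNA profile (-0.15, adjusted p 0.889). The count itself fell to 4 without WT sham 1, 2 or 4 or KO sham 9, 11 or 12, and to 5 without WT sham 27 or KO sham 10 or 31. Among unnamed rows, the row at 101 was 0.53 higher (SE 0.097, adjusted p 0.00325) and the row at 102 was 0.50 higher (SE 0.12, adjusted p 0.0370). The call at 101 was lost within both runs, at 0.47 in mice 1 to 24 (adjusted p 0.0834) and 0.63 in mice 25 to 42 (adjusted p 0.366). The call at 102 was lost without WT sham 1, 2, 3 or 4 or KO sham 9, 11, 12, 32 or 33 (adjusted p up to 0.1) and when the sham arrays alone were fitted (0.0644).

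After CCI alone 3 neighbours were called (1.01%, against 0.653% of all rows). P4htm was the named one. The other named neighbours with the smallest p were Clstn2 (0.23, adjusted p 0.351), Cep63 (0.17, adjusted p 0.310), Gm29154, a long noncoding RNA gene (0.15, adjusted p 0.346), and Iqcf4 (-0.18, adjusted p 0.335). The unnamed rows called were those at 111 (0.62, SE 0.10, adjusted p 0.00173) and at -26 (0.45, SE 0.085, adjusted p 0.00583). Both had a mean signal below the array median, as had Gm29154 and Iqcf4. The row at 111 ran from 5.72 to 6.03 in WT sham (median 5.74), from 5.05 to 5.70 in WT CCI (5.44), from 5.73 to 5.94 in KO sham (5.77) and from 5.66 to 6.35 in KO CCI (6.11), so WT CCI arrays lay below and KO CCI arrays above the sham arrays, with overlap in KO. Both rows lost the call when only the CCI arrays were fitted (adjusted p 0.0913 and 0.0647) and without the 7 arrays (0.224 and 0.186).

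Injury gave more calls among the neighbours than genotype did. In WT mice 56 of 298 were called (18.8%, against 16.8% of all rows), 20 higher (8.86% of all rows were) and 36 lower (7.96%). In KO mice 59 were called (19.8%, against 16.7%), 23 higher (8.43% of all rows were) and 36 lower (8.27%). Among rows brighter than the array median, 33.1% of neighbours were called in WT and 37.5% in KO, against 28.1% of all such rows in each. Both comparisons use different mice, and 41 rows were called in each of them, all in the same direction, which is 73.2% of the WT list and 69.5% of the KO list. Among the named ones these were 12 higher and 9 lower. The overlap of the WT and KO lists over all rows was not counted. The shares of the lists that overlap therefore cannot be called particular to the neighbours.

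Cell type markers moved in the same comparison. All 8 microglia and macrophage markers rose in both genotypes, and the mean of the list lay between 7.33 and 7.55 in WT sham, 7.42 and 7.84 in KO sham, 8.97 and 10.24 in WT CCI and 8.90 and 9.98 in KO CCI. Of 7 cortical neuron markers, 5 fell in WT and 6 in KO, with the list mean between 11.37 and 11.62 in WT sham, 11.43 and 11.72 in KO sham, 10.67 and 11.12 in WT CCI and 10.80 and 11.22 in KO CCI. Of 5 astrocyte markers 4 rose in each genotype, and of 5 oligodendrocyte markers 5 rose in WT and 1 in KO. The part of these shifts in the values of single neighbours was not tested.

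**Figure D3:**
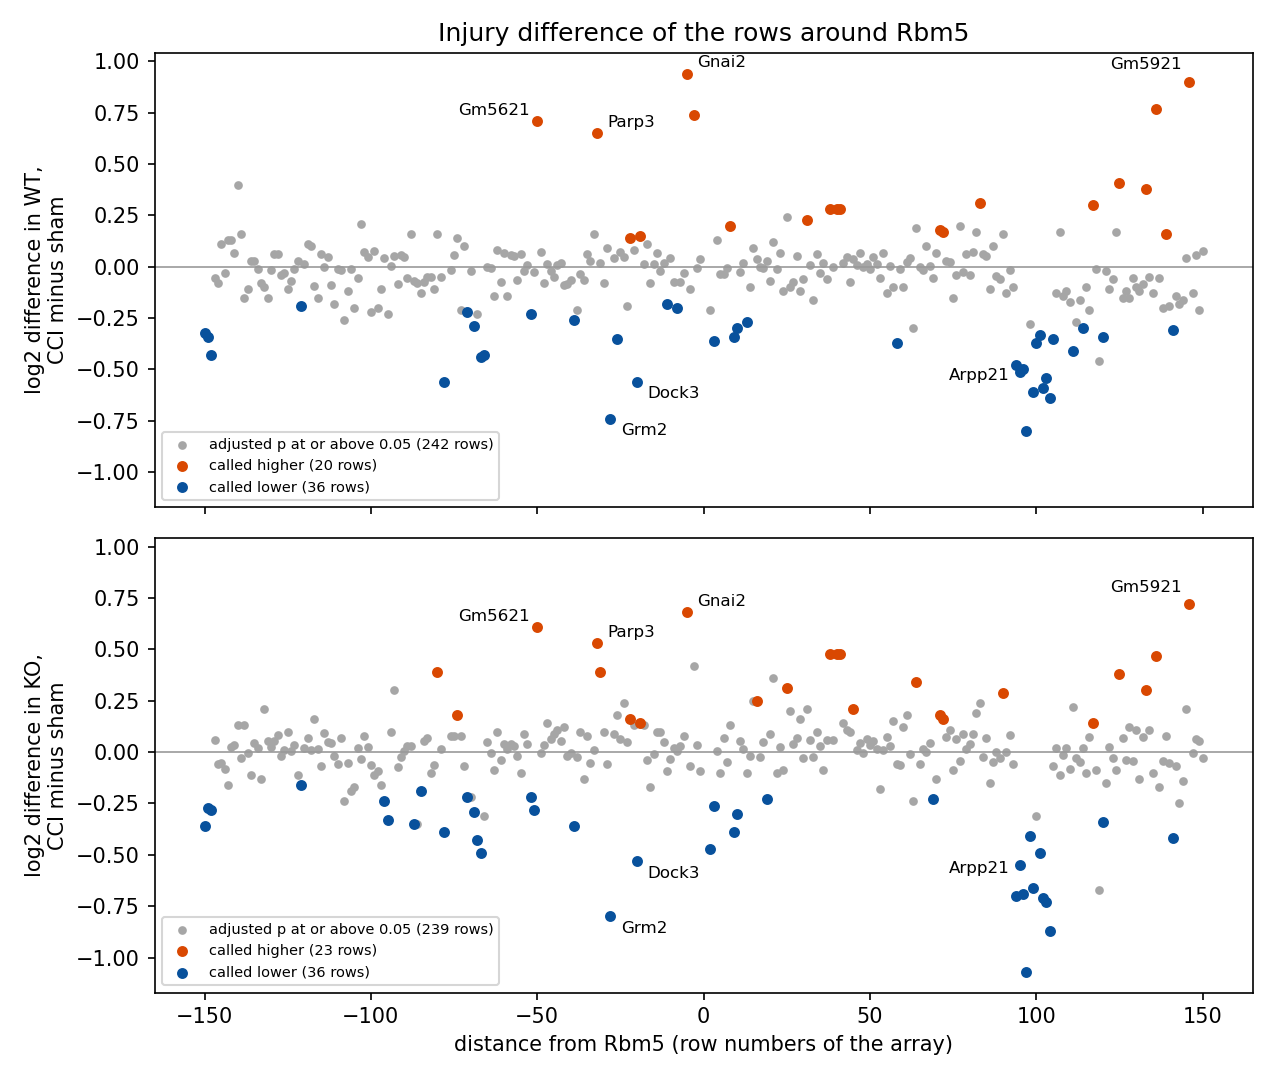
Difference in log2 signal between CCI and sham for the 298 rows against distance from Rbm5, in WT mice (top, 20 higher and 36 lower) and KO mice (bottom, 23 higher and 36 lower). Gnai2, 5 row numbers from Rbm5, has the largest rise in WT at 0.94, and a cluster of lower rows stands near 100.

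The largest rise in WT mice lay close to Rbm5. Gnai2 ran from 12.60 to 12.82 in WT sham (median 12.71), from 13.44 to 13.96 in WT CCI (13.62), from 12.74 to 13.13 in KO sham (12.90) and from 13.37 to 13.83 in KO CCI (13.63). The CCI and sham groups did not overlap in either genotype. The rise was 0.94 in WT (SE 0.081, 1.91-fold, adjusted p 1.55e-09) and 0.68 in KO (SE 0.082, 1.61-fold, adjusted p 6.22e-07). In KO mice 25 to 42 alone it was 0.58 (adjusted p 0.0524).

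Slc38a3, 3 row numbers from Rbm5, rose in WT. It ran from 9.61 to 10.03 in WT sham (median 9.88), from 9.73 to 10.96 in WT CCI (10.60), from 9.67 to 10.15 in KO sham (9.78) and from 9.70 to 10.72 in KO CCI (10.29). All groups overlapped, in WT through WT CCI 35 at 9.73. The difference was 0.74 in WT (SE 0.15, 1.67-fold, adjusted p 0.000831) and 0.42 in KO (SE 0.16, adjusted p 0.0632). In WT it was 0.97 in mice 1 to 24 (adjusted p 0.00329) and 0.43 in mice 25 to 42 (adjusted p 0.308). The difference between the genotypes was -0.32 (95% interval -0.77 to 0.13, adjusted p 0.834). Of the 14 measured genes of the human 3p21.3 list, 3 rose in WT (Gnai2, Slc38a3 and Rassf1, the last by 0.17, adjusted p 0.0108) and 1 in KO (Gnai2). Over all rows 8.86% were called higher in WT and 8.43% in KO.

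Parp3, which codes for an ADP-ribosyltransferase of DNA repair, had group medians below the array median (5.83) after sham and above it after CCI. The lowest CCI array of each genotype stayed below 5.83, as did the mean signal of Parp3 over all arrays. Signals ran from 5.28 to 5.35 in WT sham (median 5.31), from 5.72 to 6.09 in WT CCI (6.01), from 5.31 to 5.54 in KO sham (5.39) and from 5.81 to 6.08 in KO CCI (5.94). Sham and CCI did not overlap in either genotype. The rise was 0.65 in WT (SE 0.054, 1.57-fold, adjusted p 7.89e-10) and 0.53 in KO (SE 0.055, 1.44-fold, adjusted p 5.65e-08).

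Other neighbours that rose in both genotypes were Crtap, a gene of collagen prolyl hydroxylation, Cmtm7, a MARVEL domain gene, and Pdcd6ip, which codes for the membrane remodelling protein ALIX. Crtap rose by 0.41 in WT (adjusted p 0.000154) and 0.38 in KO (adjusted p 0.000480). Cmtm7 rose by 0.38 (adjusted p 0.000163) and 0.30 (adjusted p 0.00267), and Pdcd6ip by 0.30 (adjusted p 2.55e-05) and 0.14 (adjusted p 0.0345). The mean signal of Cmtm7 was below the array median. In KO mice 25 to 42 alone Crtap was 0.25 (adjusted p 0.289) and Cmtm7 0.21 (adjusted p 0.326). The shared small nuclear RNA profile rose by 0.28 in WT (SE 0.097, adjusted p 0.0422) and by 0.48 in KO (SE 0.097, adjusted p 0.000654). Its WT call was lost without WT sham 1, 2, 3, 4 or 25 or WT CCI 13, 14, 34, 35 or 36 (adjusted p up to 0.106), and its KO difference was 0.20 in mice 25 to 42 alone (adjusted p 0.502). Gm24259 rose by 0.31 in KO (adjusted p 0.0371), which did not stay called without KO sham 9, 10, 11 or 12 or KO CCI 24, 40, 41 or 42 (adjusted p up to 0.128) and was 0.08 in mice 25 to 42 alone (adjusted p 0.815).

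Annotated pseudogenes were among the large rises. Gm5921 rose by 0.90 in WT (SE 0.083, adjusted p 3.6e-09) and 0.72 in KO (SE 0.083, adjusted p 3.12e-07), with no overlap of sham and CCI in either genotype. Gm5621 rose by 0.71 in WT (SE 0.14, adjusted p 0.000311) and 0.61 in KO (SE 0.14, adjusted p 0.00171), with 0.42 in WT mice 1 to 24 alone (adjusted p 0.0704) and 0.40 in KO mice 25 to 42 alone (adjusted p 0.204). Rp31-ps19, below the array median, rose by 0.31 in WT (adjusted p 0.0122; 0.19 with adjusted p 0.28 in mice 1 to 24 alone) and was 0.24 in KO (adjusted p 0.0524). Signal of a pseudogene and of its parent gene cannot be told apart where they share sequence, and the same holds for the unnamed row at 136, which is paired with several genes and rose by 0.77 in WT (adjusted p 2.86e-05) and 0.47 in KO (adjusted p 0.00702). In KO mice 25 to 42 alone that row was 0.23 (adjusted p 0.454).

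Grm2 had the largest fall among named neighbours in both genotypes. It codes for a presynaptic metabotropic glutamate receptor and ran from 9.76 to 10.12 in WT sham (median 9.93), from 8.60 to 9.63 in WT CCI (9.30), from 9.59 to 10.05 in KO sham (9.85) and from 8.44 to 9.49 in KO CCI (9.11). Every CCI array lay below every sham array of its genotype. The difference was -0.74 in WT (SE 0.15, 1.67-fold lower, adjusted p 0.000632) and -0.80 in KO (SE 0.15, 1.74-fold lower, adjusted p 0.000353). In mice 1 to 24 alone it was -0.67 in WT (adjusted p 0.0614) and -0.63 in KO (adjusted p 0.0694).

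Dock3, which codes for a neuronal activator of Rac, was among the brightest named neighbours. It ran from 13.69 to 13.83 in WT sham (median 13.77), from 12.98 to 13.52 in WT CCI (13.19), from 13.60 to 13.74 in KO sham (13.67) and from 12.94 to 13.21 in KO CCI (13.17). No CCI array reached a sham array of its genotype. The difference was -0.56 in WT (SE 0.064, 1.47-fold lower, adjusted p 2.09e-07) and -0.53 in KO (SE 0.065, 1.45-fold lower, adjusted p 7.66e-07).

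Bsn, 9 row numbers from Rbm5, fell with overlap. It ran from 10.66 to 10.95 in WT sham (median 10.80), from 9.95 to 10.72 in WT CCI (10.50), from 10.57 to 10.83 in KO sham (10.77) and from 10.06 to 10.63 in KO CCI (10.35). The lowest WT CCI value was that of array 35, at 9.95. The difference was -0.34 in WT (SE 0.093, adjusted p 0.0112) and -0.39 in KO (SE 0.094, adjusted p 0.00356), and in WT mice 1 to 24 alone -0.16 (adjusted p 0.378). The KO call was lost within both runs of mice, at -0.31 in mice 1 to 24 (adjusted p 0.0643) and -0.52 in mice 25 to 42 (adjusted p 0.082).

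Further neighbours fell in both genotypes. Fbxl2, an F-box protein gene, fell by 0.34 in each (adjusted p 1.31e-06 in WT and 2.37e-06 in KO), and its sham and CCI groups did not overlap. Slc25a36, which codes for a mitochondrial nucleotide carrier, fell by 0.34 and 0.27 (adjusted p 8.25e-06 and 0.000242), again without overlap. Alas1, which codes for the first enzyme of haem synthesis, fell by 0.26 and 0.36 (adjusted p 0.00367 and 0.000129). Tmem108, a neuronal membrane protein gene, fell by 0.22 in each (adjusted p 0.0222 and 0.0252), and Armc8, a ubiquitin ligase complex gene, by 0.19 and 0.16 (adjusted p 0.000905 and 0.00632). The WT call of Tmem108 was lost without WT sham 27 (adjusted p 0.0518) or WT CCI 36 (0.0631). The WT calls of Alas1 and Armc8 were lost within both runs of mice (adjusted p from 0.0719 to 0.116), and so was that of Tmem108, at -0.12 in mice 1 to 24 (adjusted p 0.483) and -0.35 in mice 25 to 42 (adjusted p 0.0555).

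Some calls passed in 1 genotype. AU023762, a long noncoding RNA gene, fell by 0.30 in WT (adjusted p 0.0303) and differed by 0.022 in KO (adjusted p 0.924). Its WT call was lost without WT sham 2 or 25 or WT CCI 14, 34 or 36 (adjusted p up to 0.0775). In KO mice Ephb1, an ephrin receptor gene, fell by 0.35 (SE 0.095, adjusted p 0.00930) and was -0.071 in WT (adjusted p 0.702). Klhl18, a Cullin 3 adaptor gene, fell by 0.23 in KO (adjusted p 0.00324) and was -0.057 in WT (adjusted p 0.579). The tests of these differences between genotypes gave adjusted p of 0.779, 0.804 and 0.780 for AU023762, Ephb1 and Klhl18. All 3 calls were lost within both runs of mice (adjusted p from 0.0683 to 0.265).

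**Figure D4:**
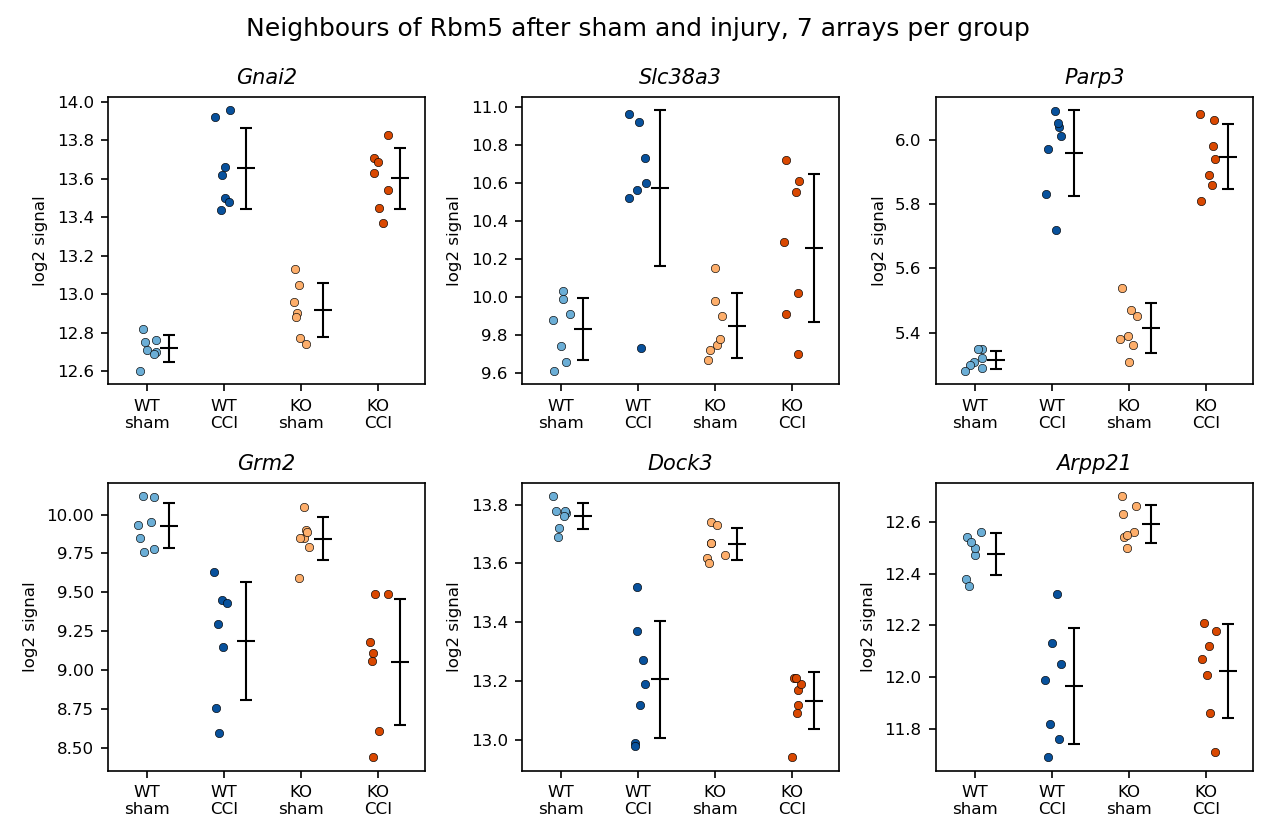
Log2 signal of 6 neighbours on each array, by group, with the mean and SD beside the points (n = 7 per group). Gnai2 and Parp3 rise and Grm2, Dock3 and Arpp21 fall with no overlap of sham and CCI within a genotype, whereas Slc38a3 overlaps, with 1 WT CCI array at 9.73.

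Arpp21 and Mir128-2 lie about 100 row numbers above Rbm5. Arpp21 codes for a cAMP-regulated phosphoprotein of forebrain neurons that binds RNA. It ran from 12.35 to 12.56 in WT sham (median 12.50), from 11.69 to 12.32 in WT CCI (11.99), from 12.50 to 12.70 in KO sham (12.56) and from 11.71 to 12.21 in KO CCI (12.07). No CCI array reached a sham array of its genotype, and the difference was -0.51 in WT (SE 0.077, 1.42-fold lower, adjusted p 1.43e-05) and -0.55 in KO (SE 0.078, 1.47-fold lower, adjusted p 7.13e-06). Mir128-2, whose mature product is printed above, ran from 7.55 to 7.91 in WT sham (median 7.85), from 7.19 to 7.72 in WT CCI (7.62), from 7.54 to 8.21 in KO sham (7.90) and from 7.13 to 7.84 in KO CCI (7.42). The groups overlapped. The difference was -0.41 in KO (SE 0.11, adjusted p 0.0124) and -0.28 in WT (SE 0.11, adjusted p 0.0928), and in KO -0.22 without the 7 arrays (adjusted p 0.175). The KO call was lost within both runs of mice (adjusted p 0.0921 and 0.28). The labels do not say whether this row reads the mature RNA, its precursor or the transcript around it.

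Arpp21 sits in an unbroken stretch of 11 rows, from 94 to 104, that were all brighter than the array median, 9 of them unnamed. This stretch was singled out after its values were seen. Its row means ran from 7.66 to 15.84. After injury 10 of the 11 were called lower in WT and 10 of 11 in KO, with differences from -0.80 to -0.28 in WT and from -1.07 to -0.31 in KO. Among all 32962 rows brighter than the array median, 4600 were called lower in WT and 5182 in KO. The row at 97 had the largest fall of all neighbours in each genotype, from a mean of 11.97 ± 0.20 to 11.16 ± 0.59 in WT and from 11.96 ± 0.24 to 10.87 ± 0.49 in KO (SD, n = 7). Its difference was -0.80 in WT (SE 0.21, adjusted p 0.00653) and -1.07 in KO (SE 0.21, adjusted p 0.000471), and -0.37 in WT mice 1 to 24 alone (adjusted p 0.419). The row at 104 fell by 0.64 in WT (adjusted p 0.0159) and 0.87 in KO (adjusted p 0.00135), with -0.42 in WT mice 1 to 24 alone (adjusted p 0.283) and -0.77 in KO mice 25 to 42 alone (adjusted p 0.0717). Of the 10 rows before the stretch, 0 were called in WT and 1 in KO, and of the 10 rows after it 3 and 0, and those rows had lower signals, with means from 4.0 to 7.14 and from 4.16 to 6.97. The unnamed rows at 100, 101 and 102 are the same rows that were higher in KO mice over both procedures, while Arpp21 itself was 0.078 higher with no call (adjusted p 0.622).

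**Figure D5:**
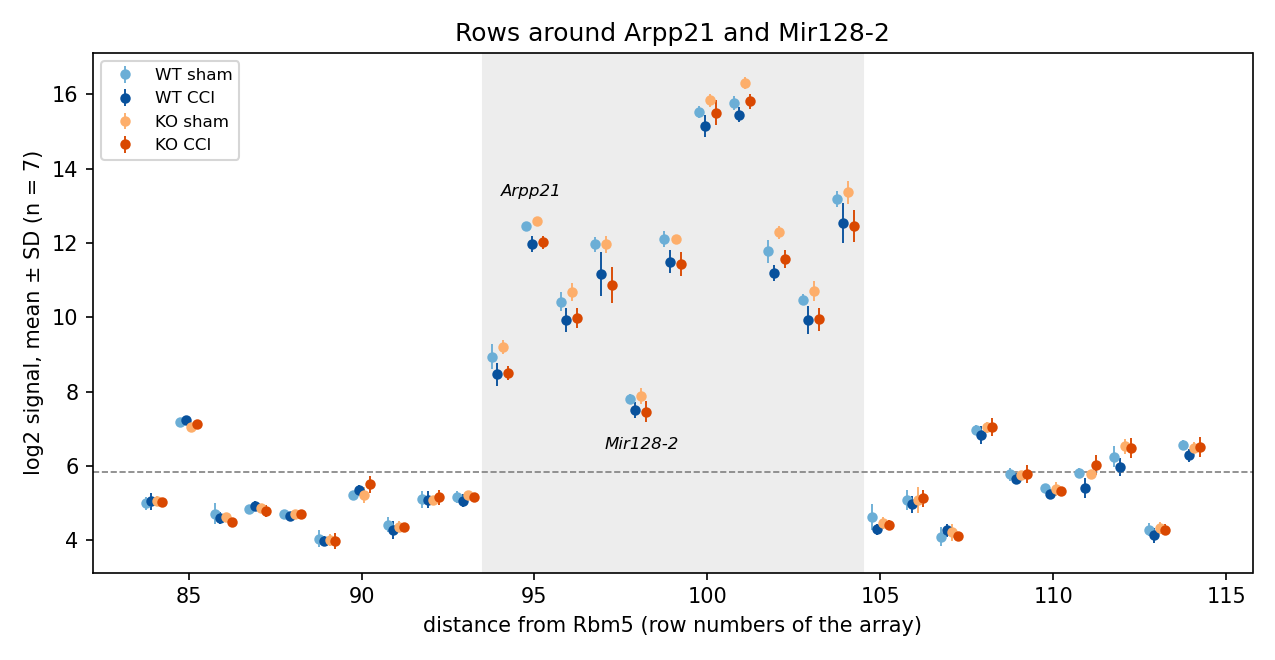
Mean and SD of log2 signal in each group (n = 7) for the rows from 10 before to 10 after the stretch of 11 rows around Arpp21 and Mir128-2 (shaded), against distance from Rbm5 in row numbers. The dashed line is the median of the array medians, 5.83. All 11 rows lie above it and have lower means after CCI than after sham in both genotypes.

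A cluster of F-box genes gave almost no signal in cortex. The 15 neighbours of the Fbxw family, several of them known from the oocyte, had mean signals from 3.68 to 4.91, all below the array median. None was called between genotypes by limma, with differences from -0.046 to 0.066 over both procedures. In that comparison 0.464% of all rows below the array median were called. Fbxw23 was called after injury in KO (0.21, SE 0.046, adjusted p 0.00158) and not in WT (0.036, adjusted p 0.682).

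No neighbour was called for a difference in the injury response between genotypes. By limma 0 of 298 passed, as 0 of all rows did (0%), and the lowest adjusted p was 0.713. At an unadjusted p below 0.05 there were 28 neighbours (9.4%), against 6.21% of all rows. The named ones with the smallest p were Fbxw23 (0.17, 95% interval 0.038 to 0.30), Fbxw19 (0.18, 0.033 to 0.32), Ppp2r3a, a phosphatase regulatory subunit gene (-0.19, -0.34 to -0.032), Ndufaf3, a gene of respiratory complex I assembly (-0.26, -0.47 to -0.043), and AU023762 (0.32, 0.041 to 0.59). Their adjusted p was 0.779 in each case, and both Fbxw rows were below the array median. The unnamed rows at -26 and 111, called between genotypes after CCI, had interaction values of 0.53 and 0.63 with an adjusted p of 0.713. They too had mean signals below the array median. For Gnai2 the rise was 0.25 smaller in KO by estimate (interaction -0.25, 95% interval -0.49 to -0.017, adjusted p 0.784), and for P4htm the interaction was -0.091 (-0.24 to 0.062).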

How the data were processed

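Total RNA of cortex was extracted with Trizol, and 100 ng was turned into biotinylated cDNA for whole-transcript mouse arrays, per the labels' protocols. The deposited table holds 1 log2 value per row and array, per the file headers and values; the software, normalization and genome build behind it are not given in the sources used here. Arrays give no counts, so the number of arrays (28, 7 mice per group) limits the precision. All value columns were mapped to samples by name.

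Control rows (6732 of 72688) were left out. The other 65956 rows were fitted with limma 3.58.1 in R 4.3.3 as 4 groups plus sex, with empirical Bayes moderation and Benjamini-Hochberg adjustment over all rows, and called at an adjusted p below 0.05. The procedure was tested on simulated data with 200 changed rows. The platform annotation, updated through RefSeq tables, gave 31146 rows 1 gene, 1484 several, 33206 none and 120 a gene of another chromosome, which were not named.

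The named genes were the 6 named neighbours nearest to Rbm5 on each side, every neighbour called between genotypes (or the 5 with the smallest p where fewer than 5 were called), the 10 that rose and the 10 that fell most after injury, the 5 with the smallest interaction p, and among interspersed genes those called and the 4 nearest on each side. Of rows without 1 gene, up to 2 per direction were given. The neighbours and all lists were chosen with earlier results of these data known. Alternatives were no sex term, the run of title numbers as a covariate or alone, quantile normalization, centring, array weights, an intensity trend, only the arrays compared, annotated or brighter rows only, a threshold of 0.01 and leaving out each array.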

Additional observations from a re-analysis of the deposited data

Results flagged for a closer look

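In each group of 7, a value was marked where the lowest or highest array lay far from the nearest other array relative to the range of the group. This met 23 of 312 groups of values (7.37%), and chance marks about 1 in 20.

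P4htm had such arrays in both sham groups, and both narrowed the gap between genotypes. WT sham 3 was lowest at 7.80 (others 7.94 to 8.02) and KO sham 33 was highest at 7.78 (others 7.60 to 7.66). Dalrd3 was lowest in WT CCI 35 at 9.65 (others 10.17 to 10.45). Cep63 was highest in KO CCI 40 at 8.49 (others 8.05 to 8.16), and Celsr3 was lowest in KO sham 9 at 9.10 (others 9.33 to 9.44).

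WT CCI 35 was also the lowest array for Slc38a3 at 9.73 (others 10.52 to 10.96) and Bsn at 9.95 (others 10.40 to 10.72). WT sham 25 was lowest for Rbm6 at 9.52 (others 9.61 to 9.66), Mir128-2 at 7.55 (others 7.76 to 7.91) and Ppp2r3a at 9.31 (others 9.54 to 9.68). The choroid plexus list mean was highest in WT sham 25 at 8.70 (others 5.77 to 6.86) and in KO CCI 40 at 8.48 (others 5.63 to 6.25).

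Among other genes of the injury comparison, Gm5621 was highest in WT sham 1 at 9.34 (others 9.15 to 9.23) and Alas1 lowest in the same array at 8.72 (others 8.85 to 8.93). Tmem108 was lowest in WT sham 2 at 8.36 (others 8.56 to 8.70), and Fbxl2 was highest in KO CCI 41 at 8.88 (others 8.75 to 8.80). Ndufaf3 was lowest in WT CCI 14 at 7.58 (others 7.73 to 7.84) and in KO CCI 21 at 7.40 (others 7.65 to 7.81). Mon1a was highest in WT CCI 13 at 6.61 (others 6.34 to 6.45).

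Dim rows gave the rest. Fbxw19 was highest in WT sham 3 at 4.36 (others 4.16 to 4.23) and in KO CCI 23 at 4.30 (others 4.13 to 4.19), 4930535L15Rik was lowest in WT CCI 36 at 4.24 (others 4.62 to 4.89), and Zmynd10 was highest in WT sham 2 at 4.90 (others 4.66 to 4.74).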

How the results depend on the processing

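Of 76 called differences followed by name, 61 stayed called without any single array and 16 under all alternatives, and 0 reversed. Calls lost numbered 53 in mice 25 to 42 alone, 33 in mice 1 to 24 alone, 26 at a threshold of 0.01, 9 after centring, 3 after quantile normalization, 1 each with the run of numbers as a covariate, an intensity trend or array weights, and 8 of 58 with only the arrays compared. Leaving out the 7 arrays, chosen after seeing the data, lost 23. Neighbours called between genotypes over both procedures (15) became 8 in mice 1 to 24, 0 in mice 25 to 42, 7 with annotated rows only, 9 without the 7 arrays and 7 at 0.01. After sham (9) they became 4, 0 and, at 0.01, 3. After CCI (3) they became 0 in each run, and 1 with only the arrays compared, with annotated rows only or without the 7 arrays. Injury calls in WT (56) became 21 and 22 in the runs, 34 with annotated rows only and 29 at 0.01. In KO (59) they became 15 in mice 25 to 42, 38 with annotated rows only and 36 at 0.01. Calls among interspersed genes (8) became 2 and 0 in the runs, 2 without the 7 arrays and 2 at 0.01. Each run, each subset of rows and the 0.01 threshold hold fewer mice, fewer rows or a stricter limit by construction, and for the 7 arrays the cause was not tested. Leaving out 1 array gave 13 to 16 calls over both procedures, 4 to 11 after sham, 3 to 4 after CCI, 45 to 56 for injury in WT, 47 to 62 in KO, 0 to 0 for the interaction and 6 to 8 among interspersed genes. No paired analysis was possible because the numbers in the titles are not shared between groups. Rows below the array median are not shown to be above background.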

Other observations

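Trf and Gpx1, both interspersed genes, had larger rises after injury than any neighbour, and the genes named here were chosen after their values were seen. Trf, which codes for the iron carrier transferrin and is abundant in oligodendrocytes, ran from 13.08 to 13.86 in WT sham (median 13.59), from 15.91 to 16.49 in WT CCI (16.35), from 13.35 to 14.06 in KO sham (13.68) and from 15.05 to 16.45 in KO CCI (15.78). Sham and CCI did not overlap, and the rise was 2.70 in WT (SE 0.16, 6.52-fold, limma adjusted p 1.99e-12) and 2.12 in KO (SE 0.16, 4.34-fold, adjusted p 4.21e-10). Gpx1, which codes for a glutathione peroxidase that removes hydrogen peroxide, ran from 10.36 to 11.06 in WT sham (median 10.67), from 11.98 to 12.98 in WT CCI (12.41), from 10.28 to 10.83 in KO sham (10.60) and from 11.65 to 12.42 in KO CCI (12.15). Every CCI array lay above every sham array, and the rise was 1.75 in WT (SE 0.13, 3.37-fold, limma adjusted p 1.16e-10) and 1.55 in KO (SE 0.13, 2.93-fold, adjusted p 2.55e-09). Rhoa, which codes for a small GTPase of the actin cytoskeleton, rose by 0.66 in WT (SE 0.076, adjusted p 2.01e-07) and 0.56 in KO (SE 0.077, adjusted p 5.01e-06). None of the 3 was called between genotypes over both procedures, with -0.16 for Trf (SE 0.12, adjusted p 0.646), -0.21 for Gpx1 (SE 0.094, adjusted p 0.345) and -0.015 for Rhoa (SE 0.054, adjusted p 0.953). Microglial markers, and in WT all 5 oligodendrocyte markers, rose in the same comparison, as given above, and their part in these values was not tested.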
